A study of Mus musculus with 42 samples.

Results

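The muscle ASB genes are 10 of the 13809 genes in the table: Asb2, Asb5, Asb8, Asb10, Asb11, Asb12, Asb14, Asb15, Asb16 and Asb18. They were chosen by symbol, and all 10 passed the filter on low values in both sets. RNA of the tibialis anterior, a fast muscle of the lower hindlimb, was sequenced in 42 libraries of male C57BL/6J mice aged 4 months, in 11 groups run in 2 sets. Set 1 held WT, Sesn1SkM-Tg and Sesn2SkM-Tg muscles in the basal state and after immobilization, and set 2 held WT and Sesn1KO muscles in both states together with denervated WT muscles. Each group had 4 libraries, except the immobilized WT and Sesn1SkM-Tg muscles of set 1, with 3 each. Immobilization held the right hindlimb rigid with sticks for 3 days, denervation removed a piece of the sciatic nerve of the right leg 3 days before the muscle was taken, and basal muscles came from mice with neither treatment. Sesn1SkM-Tg mice carried human Sesn1 under the muscle creatine kinase (MCK) promoter, and Sesn2SkM-Tg mice carried Sesn2 under a Tet-regulated promoter switched on by MCK-tTA, so both transgenes act in muscle fibres. The WT mice are described as littermate controls of each line, those of the transgenic lines being free of the transgene, and the Sesn1KO line came from another laboratory. The authors' methods name the C57BL/6J background for the Sesn1SkM-Tg line and no strain for the Sesn2SkM-Tg and Sesn1KO lines. The labels do not say which animal gave each library, so the p-values measure the spread between these samples.

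ASB proteins are substrate adaptors of ubiquitin ligases. Their ankyrin repeats hold the protein to be marked, and their SOCS box binds elongin B and elongin C, which connect it to the scaffold CUL5 and the RING protein RBX2 (gene Rnf7). The NEDD8 cycle switches the cullin on, and the COP9 signalosome removes NEDD8 again. Several ASB genes are expressed mainly in skeletal or cardiac muscle. ASB2 is known for the degradation of filamins, which anchor actin, and ASB15 for effects on myoblast growth and differentiation. ASB11 is an adaptor at the endoplasmic reticulum that targets the cell death protein BIK, and Asb5 is known as a gene of satellite cells, the stem cells of muscle, and of growing arteries. All 10 share the adaptor role, so they are ordered here with the members of known substrate or setting first.

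Values are linear normalized counts, with library sums of 722430 to 1276769. Read numbers are unknown, so no counting error can be given. Levels were compared only within a set, because the values look adjusted between the sets. Sesn1 ran from 41.6 to 77.6 in basal Sesn1SkM-Tg muscles against 15.0 to 22.1 in basal WT muscles of set 1, and Sesn2 from 6.54 to 13.0 in basal Sesn2SkM-Tg muscles against 2.18 to 3.39. In the libraries labelled Sesn1KO, Sesn1 ran from 8.41 to 10.05 in the basal state against 22.5 to 29.7 in WT muscles. After immobilization it ran from 19.4 to 37.3 in Sesn1KO against 30.7 to 53.1 in WT muscles, so those ranges overlapped. Fast fibre markers were abundant in every group, with summed levels from 128856 to 162322 over the basal WT libraries of both sets. Slow fibre markers summed to at most 143 in those muscles.

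The stretch of DNA before each gene is shown first, because 5 members share a muscle motif there. RefSeq sequences (GRCm38.p6) of the 250 bases before the annotated start were matched by symbol for 10 of the 10 genes, with 14 starts in all. Letters were searched on both strands. A MEF2 motif, the site read by the MEF2 factors of muscle, was present before Asb5, Asb12, Asb14, Asb16 and Asb18, that is at 5 of the 14 starts, and in 2.92% of all 32851 promoters of the same length. The E-box CAGCTG, a site of the myogenic factors, was present before Asb16 and Asb18, at 2 of 14 starts, and in 13.0% of all promoters. The looser E-box CANNTG, which includes CAGCTG, stood before 10 of 14 starts and in 66.2% of all promoters. The FoxO motif GTAAACA was found before Asb16 and Asb18 and in 3.17% of all promoters, and TATAAA before Asb5, Asb14, Asb15, Asb16 and Asb18 and in 12.4%. In Asb14, Asb16 and Asb18 the MEF2 match overlapped a TATAAA match. A match describes letters and is not evidence of binding. Asb18 and Asb16 are printed because they hold both MEF2 and CAGCTG. Asb12 is printed because it holds a MEF2 match and fell nearly as far as Asb18 after denervation. Asb5 holds MEF2 and moved the other way, and Asb11 is a member with neither motif. Members with a MEF2 match had log2 fold changes after denervation, as defined below, of -3.03 (Asb18), -2.79 (Asb12), -1.78 (Asb14), -0.53 (Asb16) and 0.86 (Asb5). Those with neither motif had -2.75 (Asb15), -1.99 (Asb10), -1.22 (Asb11), -0.95 (Asb2) and -0.66 (Asb8). A link between motif and change was not tested. Capitals mark MEF2 and CAGCTG matches.
Asb18 (chr1:90014667-90014916, - strand): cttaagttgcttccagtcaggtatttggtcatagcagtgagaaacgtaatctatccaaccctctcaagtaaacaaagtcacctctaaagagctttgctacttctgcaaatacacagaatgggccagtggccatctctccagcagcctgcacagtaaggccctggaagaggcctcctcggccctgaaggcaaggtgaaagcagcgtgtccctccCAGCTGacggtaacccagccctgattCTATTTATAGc
Asb16 (chr11:102268501-102268750, + strand): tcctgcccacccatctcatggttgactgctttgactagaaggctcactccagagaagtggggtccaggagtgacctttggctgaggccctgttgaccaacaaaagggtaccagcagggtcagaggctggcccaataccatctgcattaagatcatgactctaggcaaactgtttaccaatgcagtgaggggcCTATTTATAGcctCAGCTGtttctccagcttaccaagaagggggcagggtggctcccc
Asb12 (chrX:95478130-95478379, - strand): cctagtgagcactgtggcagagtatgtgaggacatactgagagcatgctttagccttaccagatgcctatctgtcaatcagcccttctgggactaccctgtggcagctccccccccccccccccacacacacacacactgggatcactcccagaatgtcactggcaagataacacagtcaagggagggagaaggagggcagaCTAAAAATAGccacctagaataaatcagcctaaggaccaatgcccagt
Asb5 (chr8:54571189-54571438, + strand): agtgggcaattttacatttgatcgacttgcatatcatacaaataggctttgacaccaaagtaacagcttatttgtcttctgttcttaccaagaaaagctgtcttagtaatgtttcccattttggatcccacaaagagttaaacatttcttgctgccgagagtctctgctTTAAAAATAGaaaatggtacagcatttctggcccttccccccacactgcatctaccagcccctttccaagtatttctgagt
Asb11 (chrX:164436744-164436993, + strand): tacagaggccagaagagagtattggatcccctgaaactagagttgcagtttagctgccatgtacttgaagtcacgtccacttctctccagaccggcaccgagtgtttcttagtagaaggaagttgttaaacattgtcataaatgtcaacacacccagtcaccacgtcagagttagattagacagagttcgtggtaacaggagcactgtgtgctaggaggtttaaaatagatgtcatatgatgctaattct
The MEF2 match began 11 bases before the start of Asb18, 58 before that of Asb16, 48 before that of Asb12 and 81 before the second of 3 starts of Asb5. CAGCTG began 37 bases before the start of Asb18 and 45 before that of Asb16.

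In the genome (GRCm38) the members lie apart. Asb11 (chrX:164436994-164459170, + strand) and Asb12 (chrX:95470201-95557987, - strand) are both on the X chromosome but far from each other. The other genes are Asb2 (chr12:103321142-103356001, - strand), Asb5 (chr8:54529580-54587842, + strand), Asb8 (chr15:98134637-98165625, - strand), Asb10 (chr5:24532697-24540978, - strand), Asb14 (chr14:26894557-26915258, + strand), Asb15 (chr6:24528144-24573164, + strand), Asb16 (chr11:102268743-102279462, + strand) and Asb18 (chr1:89950220-90014666, - strand). Only Asb5 shares exon sequence with a neighbour, 75 bases with Spcs3 on the opposite strand. Whether counting used strand is not given in the sources used here, and Spcs3 had a median level of 51.3, so a part of the Asb5 reads may be uncertain.

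Divided by the exon length of each gene, Asb2 had the highest level in basal muscle and Asb18 the lowest. In basal WT muscles of set 2 the normalized count per kb was 236 for Asb2, 99.7 for Asb5 and 51.6 for Asb14. Asb10, Asb11 and Asb8 followed at 46.0, 41.2 and 39.1, then Asb16 at 31.3, Asb12 at 21.5, Asb15 at 19.0 and Asb18 at 10.5. The libraries of Asb2 lay above those of Asb5, which lay above those of Asb14. From Asb14 to Asb16 each gene overlapped its neighbour in this order, as did Asb12 and Asb15, while Asb18 lay below all others. In set 1 the order was alike, with Asb8 before Asb10 and with Asb2 and Asb5 overlapping at 171 and 134 per kb. After denervation Asb5 stood first at 179 per kb, above Asb2 at 125, and the libraries of the pair did not overlap. Asb15, Asb12 and Asb18 were then last at 2.70, 2.63 and 1.06 per kb.

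**Figure D1:**
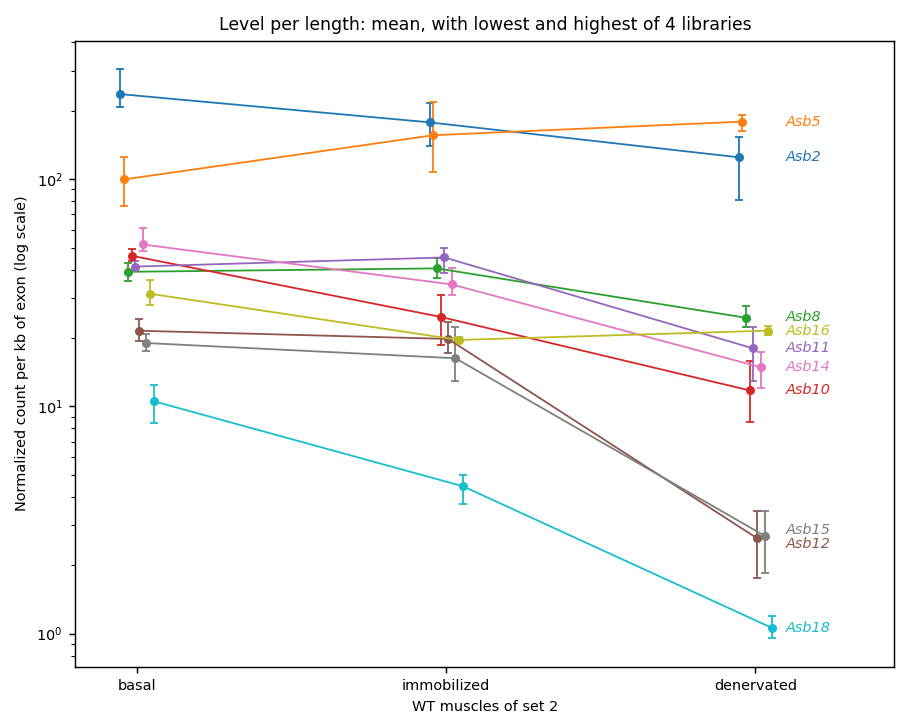
Normalized count per kb of exon (log scale) of the 10 ASB genes in basal, immobilized and denervated WT muscles of set 2; points are means and bars run from the lowest to the highest of 4 libraries. Asb5 rises from 99.7 to 179 while Asb18 falls from 10.5 to 1.06.

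Denervation, which takes the nerve input away from the fibres, changed all 10 genes in WT muscle on the deposited scale, and 8 of them when libraries were scaled to a common sum. Genes count as called below an adjusted p of 0.05 (limma, Benjamini-Hochberg over all genes tested) when their log2 fold change is 0.25 or more in size. By this rule 9 members fell, 1 rose and 0 were not called, where 27.7% of the 13629 genes tested fell and 27.8% rose. The median log2 fold change of the members was -1.50, against -0.03 over all genes tested. Fold changes are differences of log2(normalized count + 1), which understates the change of low genes such as Asb12 and Asb18. Where libraries of the compared groups did not overlap, this is stated per gene, here and below. The share of all genes that separate in this way was not counted, so separation is only a description. After denervation 60.5% of all genes tested had an unadjusted p under 0.05 (limma).

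Asb2, the filamin adaptor, fell. Its normalized counts were 774, 761, 737 and 1078 in basal muscles and 402, 288, 531 and 545 in denervated ones. Every denervated library lay below every basal one, and the log2 fold change was -0.95 (SE 0.18, adjusted p = 9.9e-05). Asb11, the adaptor of the endoplasmic reticulum, was at 124, 113, 114 and 119 in basal muscles. It was at 36.9, 41.7, 62.6 and 63.6 after denervation, a clear separation with a log2 fold change of -1.22 (SE 0.14, adjusted p = 1.7e-07). Asb15, tied to myoblast differentiation, was at 84.2, 85.4, 93.2 and 79.0 in basal muscles. After denervation it was at 11.8, 8.30, 15.6 and 12.8, which is 14.2% ± 3.55 (SD, n = 4) of the basal mean. The groups were far apart, and the log2 fold change was -2.75 (SE 0.19, adjusted p = 1.9e-10).

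Asb5, of satellite cells and arteries, was the member that rose. Basal muscles had 188, 140.5, 175 and 231 and denervated ones 316, 352, 299 and 352. All denervated libraries lay above all basal ones, with a log2 fold change of 0.86 (SE 0.26, adjusted p = 0.0085). Of the 4 satellite cell markers in the table, 2 rose after denervation (Cdh15 and Chrdl2) and 0 fell, and their summed level ran from 48.3 to 66.9 against 18.5 to 24.6 in basal muscles. Endothelial markers fell in 5 of 5 cases. The part of either cell type in the rise of Asb5 was not tested.

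Asb18 fell most. It was at 33.3, 41.6, 42.8 and 48.8 in basal muscles and at 3.78, 4.74, 3.95 and 4.29 in denervated ones, 10.1% ± 1.02 (SD, n = 4) of the basal mean. The log2 fold change was -3.03 (SE 0.18, adjusted p = 1.7e-11). Asb12 fell to a like share, from 38.7, 30.9, 32.6 and 34.9 to 2.81, 3.88, 5.50 and 4.56. Denervated libraries kept 12.2% ± 3.30 (SD, n = 4) of the basal mean, and the log2 fold change was -2.79 (SE 0.21, adjusted p = 5.9e-10). Neither gene had a denervated library near its basal range.

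Asb10 was at 132, 125, 122 and 138 in basal muscles and at 23.9, 23.9, 39.7 and 44.4 after denervation, with a log2 fold change of -1.99 (SE 0.17, adjusted p = 4e-09). Asb14 was at 123, 122, 125 and 156 and then at 34.2, 30.8, 42.2 and 44.3, with a log2 fold change of -1.78 (SE 0.14, adjusted p = 7.2e-10). Both genes separated fully between the groups. The falls of Asb8 and Asb16 were smaller. Asb8 was at 98.3, 86.0, 89.3 and 103 in basal muscles and at 54.0, 58.0, 58.0 and 66.5 after denervation, with a log2 fold change of -0.66 (SE 0.09, adjusted p = 2.5e-06). Asb16 was at 86.7, 79.5, 87.3 and 102 and 62.7, 58.3, 59.5 and 64.5, with a log2 fold change of -0.53 (SE 0.11, adjusted p = 0.00039). Again no denervated library reached the basal range.

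**Figure D2:**
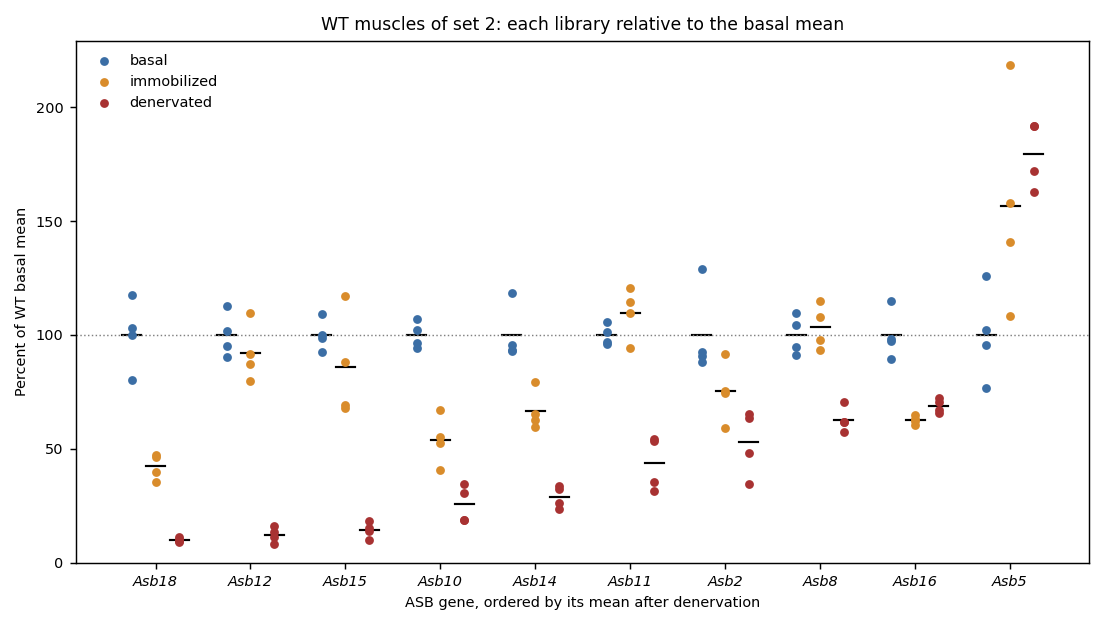
Level of each ASB gene in the WT libraries of set 2 as a percent of its basal mean (y axis), with genes ordered by their mean after denervation (x axis); points are libraries and black bars means. Denervated libraries of Asb18, Asb12 and Asb15 lie near the bottom, at means of 10.1%, 12.2% and 14.2%, while those of Asb5 lie above 100.

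Scaling mattered to the smaller falls. Denervated libraries had lower sums than basal ones, and scaling each library to a sum of 1000000 moved the median of all genes by 0.37 in this comparison, by 0.27 in the immobilization of WT muscles of set 1 and by 0.097 in that of set 2. With that scaling 7 members fell and 1 rose after denervation, while Asb8 at -0.20 and Asb16 at -0.07 were no longer called. The shares of all genes in this text belong to the deposited scale. Counts of members after scaling, above, here and below, have no such share beside them. They therefore cannot be weighed against all genes. Relative to the shifted median of all genes, Asb8 was at -0.55, Asb16 at -0.41, Asb18 at -2.97 and Asb5 at 0.98. The falls also came with a fall of fast fibre markers, of which 10 of 10 fell with a median log2 fold change of -0.98. Their summed level was 60788 to 78790 in denervated muscles and 144341 to 159942 in basal ones. Fewer fibres of a type and less RNA per fibre cannot be told apart in whole muscle, and the part of the fast fibre genes in these falls was not tested.

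Immobilization, in which the nerve stays in place but the limb does not move, lowered fewer members. In WT muscles of set 1, 6 fell, 1 rose and 3 were not called, where 14.5% of all 13705 genes tested fell and 14.9% rose. In WT muscles of set 2, 4 fell, 0 rose and 6 were not called, where 17.7% of all genes fell and 16.2% rose. The median log2 fold change of the members was -0.73 in set 1 and -0.33 in set 2, against 0.00 and -0.02 over all genes. Asb10, Asb14, Asb16 and Asb18 fell in both sets. After scaling to a common sum 5 fell and 1 rose in set 1, and 4 fell and 1, Asb5, rose in set 2, at 0.74.

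Asb18 again had the largest fall. In set 1 it was at 27.2, 33.6, 34.2 and 50.5 in basal muscles and at 8.34, 12.3 and 8.68 in immobilized ones, with a log2 fold change of -1.78 (SE 0.24, adjusted p = 4.1e-05). In set 2 the immobilized libraries were at 14.7, 19.3, 16.6 and 19.7, all below the basal ones given above, with a log2 fold change of -1.19 (SE 0.18, adjusted p = 3.2e-05). Asb10 was at 100.1, 109, 90.5 and 105 and then at 51.5, 58.9 and 39.4 in set 1. Its log2 fold change was -1.02 (SE 0.19, adjusted p = 0.00056) there and -0.90 (SE 0.17, adjusted p = 0.00035) in set 2, where immobilized libraries were at 71.0, 86.5, 52.4 and 68.0. Asb14 was at 132, 141, 99.8 and 93.3 and then at 63.7, 58.1 and 52.8 in set 1, and at 85.9, 104, 78.4 and 82.5 in the immobilized muscles of set 2. Its log2 fold changes were -0.97 (SE 0.19, adjusted p = 0.00097) and -0.58 (SE 0.14, adjusted p = 0.0023). For these 3 genes no immobilized library overlapped the basal ones in either set.

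Asb16 was at 82.0, 81.6, 70.9 and 96.7 in basal and 48.4, 50.9 and 37.3 in immobilized muscles of set 1, and at 55.3, 57.5, 56.2 and 53.9 in immobilized muscles of set 2. Both sets separated fully, with log2 fold changes of -0.85 (SE 0.13, adjusted p = 0.00011) and -0.66 (SE 0.11, adjusted p = 0.0001). In set 2 it stood at 62.6% ± 1.72 (SD, n = 4) of the basal mean after immobilization and at 68.8% ± 3.18 (SD, n = 4) after denervation.

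Asb2, Asb5 and Asb15 were not called in WT muscles of either set. Asb2 was at 731, 653, 497 and 543 in basal and 572, 659 and 437 in immobilized muscles of set 1, which overlapped, and at 625, 768, 494 and 630.0 in those of set 2. Its log2 fold changes were -0.13 (SE 0.17, adjusted p = 0.61) and -0.41 (SE 0.18, adjusted p = 0.076), and that of set 1 was 0.21 after scaling to a common sum. Asb5 was at 272, 269, 228 and 221 and 376, 211 and 259 in set 1, and at 199, 290.1, 402 and 259 in immobilized muscles of set 2. The wide spread of the immobilized libraries is plain in both sets, and the log2 fold changes were 0.15 (SE 0.27, adjusted p = 0.7) and 0.62 (SE 0.26, adjusted p = 0.075). Asb15 was at 76.3, 75.96, 97.8 and 78.5 and 73.1, 46.5 and 44.3 in set 1, which did not overlap, and at 59.3, 100.2, 75.3 and 58.1 in immobilized muscles of set 2, where replicate 2 lay above every basal library. The log2 fold changes were -0.61 (SE 0.36, adjusted p = 0.21) and -0.25 (SE 0.19, adjusted p = 0.34).

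Asb8, Asb11 and Asb12 were called in set 1 only. Asb12 was at 39.5, 26.4, 31.9 and 33.2 in basal and 14.3, 23.3 and 15.3 in immobilized muscles of set 1, with a log2 fold change of -0.87 (SE 0.22, adjusted p = 0.0052). In set 2 the immobilized libraries were at 27.3, 37.6, 31.5 and 29.9, of which replicates 1 and 4 lay below the basal range, with a log2 fold change of -0.12 (SE 0.21, adjusted p = 0.7) that was 0.00 after scaling to a common sum. Asb11 rose in set 1, from 86.2, 86.3, 92.9 and 114 to 148, 128 and 124, with a log2 fold change of 0.49 (SE 0.14, adjusted p = 0.011). In set 2 it was at 110.5, 134, 141 and 129 in immobilized muscles, with 0.13 (SE 0.14, adjusted p = 0.51). Asb8 was at 89.7, 98.1, 95.0 and 113 and 66.0, 82.9 and 69.3 in set 1, with -0.44 (SE 0.14, adjusted p = 0.027), and at 88.0, 92.0, 108 and 102 in immobilized muscles of set 2, with 0.05 (SE 0.09, adjusted p = 0.72). After scaling to a common sum the value of Asb8 in set 1 was -0.10 and was not called, and its call was lost in 7 alternatives in all, among them the fits without basal replicate 4 (-0.38), immobilized replicate 1 (-0.37) or immobilized replicate 3 (-0.41). The call of Asb11 was lost without the immobilized replicate 1 of set 1, at a log2 fold change of 0.41.

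Whether immobilization acted differently in the 2 sets was itself tested over all 42 libraries. None of the 10 members was called by limma, where 6.20% of the 13763 genes tested were, and 2 members had an unadjusted p under 0.05, as had 22.4% of all genes. These were Asb8 at -0.49 (SE 0.17, adjusted p = 0.072) and Asb12 at -0.75 (SE 0.32, adjusted p = 0.15), set 1 minus set 2. Macrophage and leukocyte markers rose in 5 of 5 cases in set 1, with a summed level of 66.5 to 135 against 13.0 to 21.8, and in 2 of 5 in set 2, with 45.0 to 82.3 against 8.96 to 43.1. Endothelial markers fell in 5 of 5 cases in set 2, whereas 1 fell and 1 rose in set 1. Smooth muscle and pericyte markers rose in 2 of 4 cases in set 1 and fell in 3 of 4 in set 2, with a summed level of 395 to 492 against 156 to 302 and of 194 to 354 against 364 to 587. The difference between the sets was called for 3 of these 4 markers, with a median of 1.63. Fibroblast markers rose in 3 of 5 cases and Schwann cell markers in 2 of 5 in set 1, and 0 of either in set 2. Fast fibre markers fell in 4 of 10 cases in set 1, and in set 2 3 fell and 1 rose. The part of these markers in the values of the ASB genes was not tested.

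**Figure D3:**
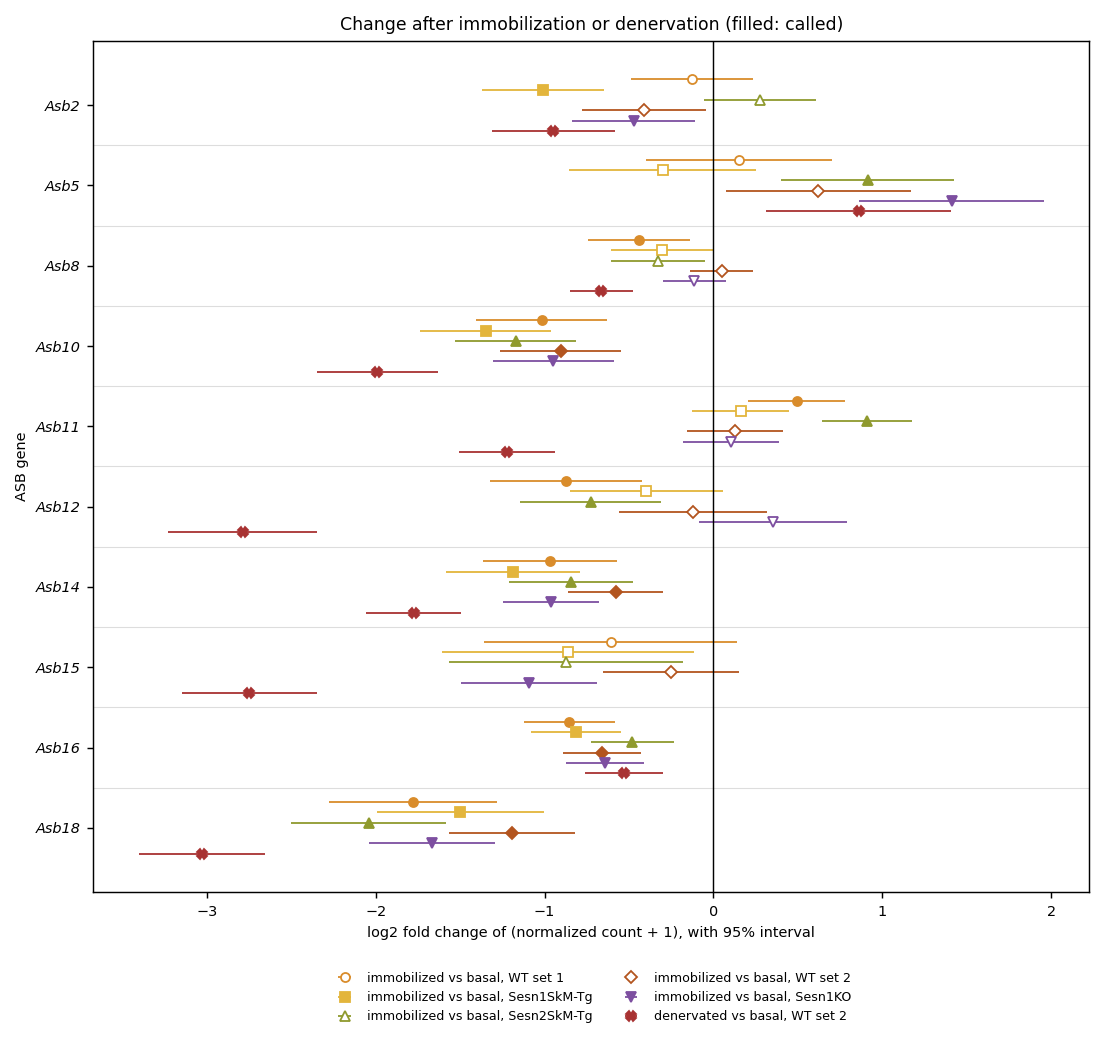
The log2 fold change (x axis, of normalized count + 1) of each ASB gene (y axis) after immobilization in 5 genotype and set combinations and after denervation; bars are 95% intervals and filled symbols are called. Denervation lies left of the immobilizations for Asb8, Asb10, Asb11, Asb12, Asb14, Asb15 and Asb18, whereas Asb16 has all 6 symbols between -0.85 and -0.48.

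Denervated muscle was compared with immobilized muscle directly in WT mice of set 2. Of the members, 8 were lower after denervation, 0 were higher and 2 were not called, where 18.4% of all genes were lower and 20.5% were higher. After scaling to a common sum 7 were lower and 1 was higher. The largest differences were those of Asb12, with a log2 fold change of -2.67 (SE 0.21, adjusted p = 4.2e-09), and of Asb15, with -2.49 (SE 0.19, adjusted p = 3.1e-09). Both genes had overlapped between immobilized and basal muscles, as their values above show. Asb18 differed by -1.84 (SE 0.18, adjusted p = 8.4e-08), Asb11 by -1.35 (SE 0.14, adjusted p = 1.3e-07), Asb14 by -1.20 (SE 0.14, adjusted p = 6.4e-07), Asb10 by -1.09 (SE 0.17, adjusted p = 3.8e-05) and Asb8 by -0.71 (SE 0.09, adjusted p = 2.6e-06). Asb2 was lower by a log2 fold change of -0.54, a call that was lost without immobilized replicate 2 (-0.44) or denervated replicate 2 (-0.35), after scaling to a common sum (-0.20) and under quantile normalization (-0.17). Asb5 at 0.24 (SE 0.26, adjusted p = 0.49) and Asb16 at 0.13 (SE 0.11, adjusted p = 0.36) were not called, with 95% intervals of -0.31 to 0.79 and -0.10 to 0.36. After scaling to a common sum Asb16 was higher after denervation, at 0.47. Both comparisons with denervated muscle share the denervated libraries.

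Asb10, Asb14, Asb16 and Asb18 also fell in both transgenic lines. In Sesn1SkM-Tg muscles 5 members fell after immobilization, 0 rose and 5 were not called, where 16.5% of all genes fell and 18.2% rose. In Sesn2SkM-Tg muscles 5 fell, 2 rose and 3 were not called, where 15.7% of all genes fell and 15.0% rose. Medians were -0.84 and -0.60. After scaling to a common sum 5 fell and 1 rose in Sesn1SkM-Tg muscles, and 3 fell and 3 rose in Sesn2SkM-Tg muscles. Asb10, Asb14 and Asb18 fell in both lines with that scaling too. Cell type markers moved as well. Fast fibre markers fell in 4 of 10 cases in Sesn1SkM-Tg muscles, with a summed level of 83788 to 122617 against 139689 to 144110 in basal muscles, and in 6 of 10 cases in Sesn2SkM-Tg muscles, with 81942 to 112345 against 152524 to 181080. Fibroblast, macrophage and smooth muscle markers rose in 5 of 5, 5 of 5 and 4 of 4 cases in Sesn1SkM-Tg muscles, and in 0 of 5, 2 of 5 and 3 of 4 cases in Sesn2SkM-Tg muscles. Endothelial markers rose in 3 of 5 and 4 of 5 cases and Schwann cell markers in 4 of 5 cases in each line. Their part in the values of the ASB genes was not tested.

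Asb18 was at 24.7, 29.7, 27.6 and 40.4 in basal and 11.4, 9.79 and 8.91 in immobilized Sesn1SkM-Tg muscles, with a log2 fold change of -1.50 (SE 0.24, adjusted p = 0.00013). In Sesn2SkM-Tg muscles it was at 36.6, 34.6, 29.0 and 29.7 and 11.9, 4.32, 7.65 and 6.24, with -2.04 (SE 0.22, adjusted p = 1.3e-06). Both lines separated fully. Asb10 changed by -1.35 (SE 0.19, adjusted p = 3.8e-05) and -1.17 (SE 0.17, adjusted p = 3.9e-05), Asb14 by -1.19 (SE 0.19, adjusted p = 0.00014) and -0.84 (SE 0.18, adjusted p = 0.0011), and Asb16 by -0.82 (SE 0.13, adjusted p = 0.00013) and -0.48 (SE 0.12, adjusted p = 0.0043). After scaling the change of Asb16 in Sesn2SkM-Tg muscles was -0.17 and was not called.

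Asb2 fell in Sesn1SkM-Tg muscles and was not called in Sesn2SkM-Tg ones. Basal Sesn1SkM-Tg muscles had 781, 833, 933 and 942 and immobilized ones 527, 449.6 and 339, with a log2 fold change of -1.01 (SE 0.17, adjusted p = 0.00025). Sesn2SkM-Tg muscles had 647, 565, 530.4 and 578 and 713, 721, 810.4 and 576, which overlapped, with 0.27 (SE 0.16, adjusted p = 0.21), and after scaling to a common sum it rose there, by 0.59. Asb11, the member that rose in WT muscles of set 1, was at 87.4, 87.7, 91.4 and 76.1 and then at 133, 199, 185 and 139.9 in Sesn2SkM-Tg muscles, with 0.91 (SE 0.13, adjusted p = 2.3e-05). In Sesn1SkM-Tg muscles it was at 84.6, 90.6, 99.3 and 96.2 and 102, 102 and 107, with 0.16 (SE 0.14, adjusted p = 0.38), and after scaling it rose there too, by 0.47. Asb5 rose in Sesn2SkM-Tg muscles, from 170.0, 134, 156 and 178 to 262, 511, 209 and 287, with 0.91 (SE 0.25, adjusted p = 0.0076), and was at 244, 297, 416 and 268 and 242, 167 and 355 in Sesn1SkM-Tg muscles, with -0.30 (SE 0.27, adjusted p = 0.4). The value of Asb5 in Sesn1SkM-Tg muscles was 0.01 after scaling.

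The other genes were called less evenly. Asb12 fell in Sesn2SkM-Tg muscles, from 30.3, 36.6, 25.2 and 27.3 to 18.1, 19.0, 16.6 and 16.3, with -0.73 (SE 0.20, adjusted p = 0.0089). In Sesn1SkM-Tg muscles it was at 26.4, 25.2, 36.5 and 33.0 and 34.2, 14.7 and 22.5, with -0.40 (SE 0.22, adjusted p = 0.16). Asb15 was at 86.0, 67.2, 40.7 and 95.2 and 58.2, 33.4 and 26.9 in Sesn1SkM-Tg muscles, and at 48.6, 14.1, 45.9 and 53.5 and 18.0, 14.8, 18.9 and 27.4 in Sesn2SkM-Tg muscles, with -0.86 (SE 0.36, adjusted p = 0.069) and -0.87 (SE 0.33, adjusted p = 0.051). Basal replicate 2 of the Sesn2SkM-Tg muscles lay below every other basal library of set 1, and without it Asb15 was called in that line, at -1.31. Asb8 was at -0.30 (SE 0.14, adjusted p = 0.11) and -0.33 (SE 0.13, adjusted p = 0.068), so it was called in neither line. The immobilized replicate 1 of the Sesn1SkM-Tg muscles lay above the other 2 in 8 of the 10 members, all but Asb5 and Asb11. Without it 8 members were called in that line in place of 5, with Asb8 at -0.52, Asb12 at -0.69 and Asb15 at -1.17. The share of all genes called in that fit is not given here.

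In Sesn1KO muscles 6 members fell after immobilization, 1 rose and 3 were not called, where 19.9% of all genes fell and 17.2% rose, with a median of -0.56. After scaling to a common sum Asb2 was no longer called and 5 fell. Asb18 fell from 43.3, 34.6, 45.1 and 37.7 to 8.80, 9.02, 19.6 and 12.7, with -1.67 (SE 0.18, adjusted p = 4e-07). Asb15 fell from 74.7, 78.3, 70.8 and 88.2 to 22.9, 36.8, 46.2 and 42.4, with -1.09 (SE 0.19, adjusted p = 0.00014), and no library overlapped. Asb14 changed by -0.96 (SE 0.14, adjusted p = 1.1e-05), Asb10 by -0.95 (SE 0.17, adjusted p = 0.00018) and Asb16 by -0.64 (SE 0.11, adjusted p = 0.00011). None of these 3 genes overlapped between the states. Asb2 fell from 731, 757, 677 and 709.9 to 414, 516, 530.2 and 630.4, with -0.47 (SE 0.18, adjusted p = 0.038), a call lost in 7 of the 8 fits that left out 1 library. Asb5 rose from 180.3, 163, 161 and 155 to 881, 529, 313 and 254, with 1.41 (SE 0.26, adjusted p = 0.00024), and immobilized replicate 1 was the highest Asb5 value of the 20 libraries of set 2. Without it the change of Asb5 was 1.08 and was still called. The same library had the highest Asb12 value, among 78.2, 34.5, 52.0 and 29.7 after immobilization and 40.5, 31.4, 35.5 and 34.1 before, with 0.35 (SE 0.21, adjusted p = 0.2). Satellite cell markers summed to 28.4 to 32.8 in immobilized against 20.2 to 24.1 in basal Sesn1KO muscles, with 1 of 4 called higher, and to 42.6 to 49.7 against 24.3 to 36.2 in Sesn2SkM-Tg muscles, also with 1 of 4. Their part in the rises of Asb5 was not tested. Fast fibre markers fell in 3 of 10 and endothelial markers in 3 of 5 cases in immobilized Sesn1KO muscles. Asb8 at -0.11 (SE 0.09, adjusted p = 0.35) and Asb11 at 0.10 (SE 0.14, adjusted p = 0.59) were not called.

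**Figure D4:**
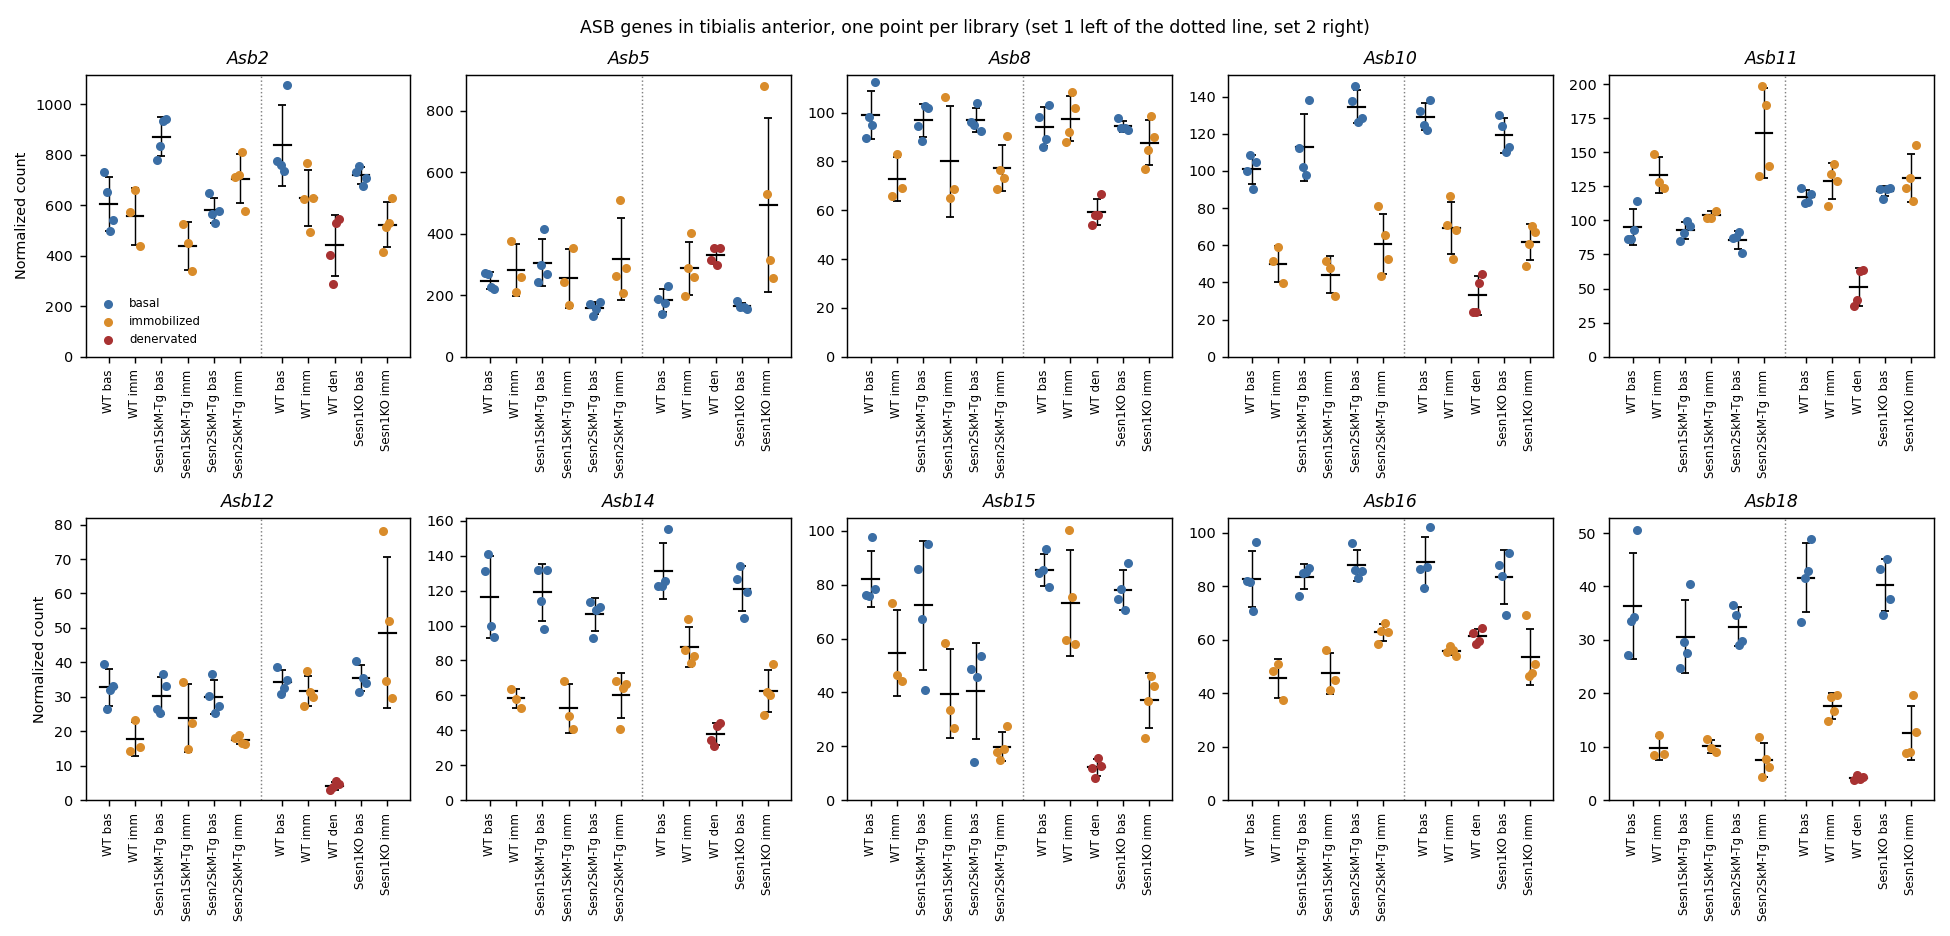
Normalized count (y axis, linear from 0) of each ASB gene in every library, by genotype and state (bas, basal; imm, immobilized; den, denervated); horizontal lines are means and bars are SD. Denervated WT libraries of Asb12, Asb15 and Asb18 are at or below 15.6, and immobilized Sesn1KO replicate 1 stands at 881 in Asb5.

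Whether a sestrin genotype changed the members was asked against the WT muscles of the same set and state. In basal muscle limma called 0 of 10 in Sesn1SkM-Tg, 0 in Sesn2SkM-Tg and 0 in Sesn1KO mice, with 1, 3 and 0 members at an unadjusted p under 0.05, beside 3.63%, 15.6% and 4.64% of all genes. Of all genes tested, 0.0292%, 2.50% and 0.147% were called. In immobilized muscle 0 members were called in Sesn1SkM-Tg mice, against 0.00730% of all genes. In Sesn2SkM-Tg and Sesn1KO mice 1 was called each, against 2.94% and 0.947% of all genes. At an unadjusted p under 0.05 these 3 comparisons held 1, 2 and 5 members, beside 3.04%, 19.2% and 14.1% of all genes.

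The gene called in both was Asb15. Its immobilized values in set 1 were 18.0, 14.8, 18.9 and 27.4 in Sesn2SkM-Tg against 73.1, 46.5 and 44.3 in WT muscles, with no overlap and a log2 fold change of -1.42 (SE 0.36, adjusted p = 0.037). In set 2 they were 22.9, 36.8, 46.2 and 42.4 in Sesn1KO against 59.3, 100.2, 75.3 and 58.1 in WT muscles, also without overlap, with -0.97 (SE 0.19, adjusted p = 0.016). Asb15 was thus lower in the immobilized muscles of both lines than in those of WT muscles. The call in Sesn1KO muscles was lost without immobilized Sesn1KO replicate 1 (-0.76) or WT replicate 2 (-0.81), and when only the compared groups entered the fit (adjusted p = 0.32). The call in Sesn2SkM-Tg muscles was lost in 6 of the 7 fits that left out 1 library, with differences of -1.58 to -1.19 over the 7. In basal muscle Asb15 was at -1.15 (SE 0.33, adjusted p = 0.07) in Sesn2SkM-Tg and -0.13 (SE 0.19, adjusted p = 1) in Sesn1KO mice. Differences that were not called included those of Asb5 in immobilized Sesn1KO muscle, at 0.66 (SE 0.26, adjusted p = 0.25), of Asb2 in basal Sesn1SkM-Tg muscle, at 0.54 (SE 0.16, adjusted p = 0.91), of Asb16 in immobilized Sesn2SkM-Tg muscle, at 0.47 (SE 0.13, adjusted p = 0.052), and of Asb14 in immobilized Sesn1KO muscle, at -0.50 (SE 0.14, adjusted p = 0.081).

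An interaction term asked whether immobilization acted differently in a genotype than in WT muscles. None of the 10 members was called by limma in Sesn1SkM-Tg, Sesn2SkM-Tg or Sesn1KO against WT muscles, where 0%, 0.00730% and 0.0220% of all genes were. At an unadjusted p under 0.05 there were 1, 3 and 2 members, beside 2.93%, 7.35% and 7.98% of all genes. For Asb2 the difference between Sesn1SkM-Tg and WT muscles was -0.88, with a 95% interval of -1.39 to -0.37 and an adjusted p of 1. For Asb15 the difference in Sesn1KO muscles was -0.84, with an interval of -1.41 to -0.27 and an adjusted p of 0.43. Those of Asb5 were 0.76 in Sesn2SkM-Tg and 0.79 in Sesn1KO muscles, with intervals of 0.01 to 1.52 and 0.02 to 1.57. For Asb18, the interval ran from -0.42 to 0.98 in Sesn1SkM-Tg and from -0.94 to 0.41 in Sesn2SkM-Tg muscles, and the difference in Sesn1KO muscles was -0.47 (SE 0.25, adjusted p = 0.67). With 3 or 4 libraries a group these intervals are wide. They are given per gene and are not adjusted for the number of genes tested. The intervals printed for Asb2, Asb15 and Asb5 do not include 0, yet none of these genes was called after adjustment.

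Across the 42 libraries, with the mean of its set taken from each value, 35 of the 36 pairs of members without Asb5 correlated positively, with a median Pearson r of 0.66. The highest values were 0.94 for Asb10 with Asb14, 0.92 for Asb10 with Asb18 and 0.92 for Asb14 with Asb18. Of the 9 pairs with Asb5, 1 was positive, and the lowest was -0.59, with Asb10. These are descriptions, since libraries of 1 group share their treatment and the scale of each library enters every gene. Genes whose pattern was most like that of the widest ranging members were sought among all others by the same measure. For Asb18 they were Smco1 (r = 0.98), Pfkfb1 (0.97), a gene of the enzyme that sets fructose 2,6-bisphosphate, and Hrc (0.97), a calcium-binding protein of the sarcoplasmic reticulum. For Asb12 they were Yipf7 (0.93), Tuba8 (0.92), an alpha tubulin, and Gm12224 (0.89). For Asb15 they were Pygo1 (0.93), a cofactor of Wnt signalling, Zyg11b (0.91), a substrate adaptor of CUL2 ligases, and St3gal6 (0.90), a sialyltransferase. The likeness of Yipf7 to Asb12 was 0.98 within set 2, which holds the denervated muscles, and 0.55 within set 1.

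The other parts of the ligase system are given on the deposited scale only. Scaling to a common sum moved the median of all genes by 0.37 after denervation, and the value of Asb8 from -0.66 to -0.20. Falls of about -0.40 in these lists may therefore not hold with that scaling. Of 6 other ASB genes in the table, 1 fell after denervation (Asb4, at -1.79), 2 rose (Asb6 at 0.59 and Asb1 at 0.38) and 3 were not called, with a median of 0.19. Beside this and the next denervation counts, 27.7% of all genes tested fell and 27.8% rose. After immobilization 2 of them fell in set 1 (Asb4 at -0.90 and Asb7 at -0.50) and 1 rose in set 2 (Asb6 at 0.44). Among all genes tested 14.5% fell and 14.9% rose in set 1, and 17.7% fell and 16.2% rose in set 2. Of the 6 genes of the CUL5 ligase core, 2 fell after denervation, Rnf7 at -0.40 and Tceb2, elongin B, at -0.40, with a median of -0.11 over the list. Cul5 itself, the scaffold, was not called there, at -0.16. In immobilized muscle Rnf7 (-0.36) and Ube2f (-0.35), the NEDD8-conjugating enzyme of CUL5, fell in set 1, and Arih2 (0.47), a partner ligase of CUL5, rose in set 2.

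Of 12 genes of the NEDD8 cycle, 4 rose and 2 fell after denervation, with a median of 0.10. Beside the denervation counts of this paragraph, 27.8% of all genes tested rose and 27.7% fell. Dcun1d2, a NEDD8 ligase, fell in all 3 WT comparisons, by -0.86 and -1.06 after immobilization in sets 1 and 2 and by -0.71 after denervation. Cand2, a muscle exchange factor for cullins, fell in set 1 (-0.77) and rose after denervation (0.47). Among 9 COP9 signalosome genes 5 rose after denervation, with Cops7b (0.59) and Cops2 (0.53) the largest, and 0 fell. Of 8 other cullin and RING genes 4 rose and 1, Cul3 (-0.60), fell. The SOCS family and other SOCS box adaptors, with 13 genes in the table, split into 5 that rose and 4 that fell. Spsb2, an adaptor of the SPRY and SOCS box family, rose after denervation (1.98) and after immobilization in both sets (1.35 and 1.76).

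Genes of known ASB2 substrates did not all move in 1 direction. Flnc, the muscle filamin, rose after denervation (1.67) and immobilization (1.04 in set 1 and 2.43 in set 2). Flna fell after denervation (-1.01) but rose in set 1 (0.77). Desmin (Des) rose in set 2 after immobilization (0.93) and denervation (0.28). These are RNA levels of whole muscle and hold no measure of protein degradation. Which cell types gave the RNA of each gene was not tested.

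**Figure D5:**
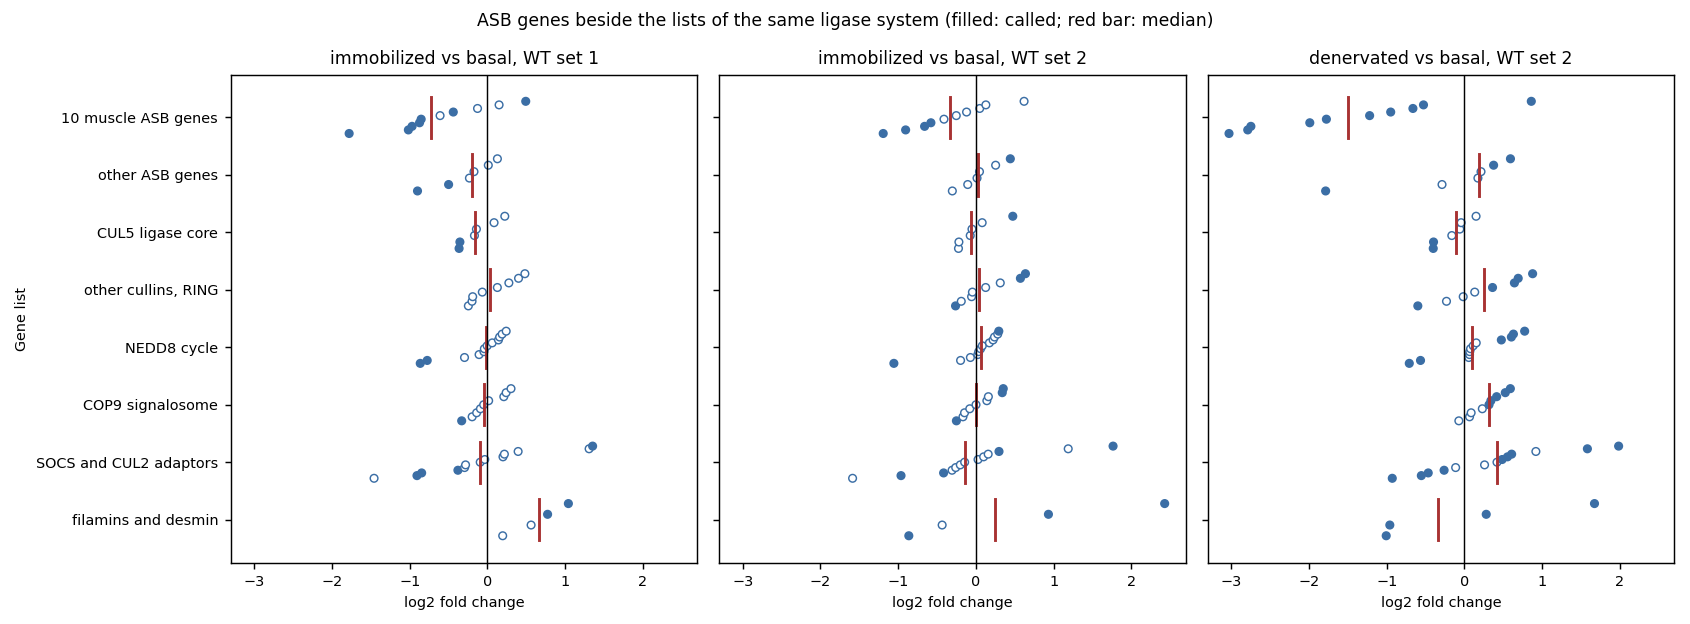
The log2 fold change (x axis) of the 10 ASB genes and of the genes of 7 related lists (y axis) in 3 comparisons of WT muscles; each point is a gene, filled where called, and red bars are medians. After denervation the ASB median is -1.50 while the medians of the other lists lie between -0.34 and 0.42.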

How the data were processed

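RNA libraries of the tibialis anterior were sequenced by the authors on an Illumina HiSeq, trimmed with cutadapt 1.7.1 and quantified with RSEM 1.2.20 on GRCm38. The deposited values are the authors' normalized counts, a linear signal that need not be whole and from which whole reads could not be recovered. The processing notes also name edgeR and limma, and whether counting used strand is not given in the sources used here. Library sums lay between 722430 and 1276769 and replicate libraries correlated at r = 0.959 to 0.991. How both sets were brought to 1 scale is not given in the sources used here, so levels were compared within a set.

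A gene entered a set's fit when 1 or more of its libraries reached a value of 1. Values were transformed to log2(normalized count + 1) and fitted with limma 3.58.1 in R 4.3.3, with group means per set and a trended variance. P-values were adjusted by Benjamini-Hochberg over all genes tested, with calls made below 0.05 for log2 fold changes of 0.25 or more in size. The test was checked on simulated data: in the immobilization of WT muscles of set 1, 82 of 100 genes with a log2 change of 1 were recovered among 13457, and 92 of 100 among 13383 in set 2, with 9 false calls each. Changes were placed only in genes above a low mean level, and the noise was normal and independent between libraries. The check therefore does not cover low values, libraries that vary together or shifts in library scale. Levels per kb used summed exon lengths of GENCODE M21. Figures were drawn with matplotlib 3.10.9. The members were taken by symbol and described in full. Genes of like pattern were the 3 with the highest Pearson r to each of the 3 members with the widest range of group means. For 1 gene of the ASB2 substrate list, values are not reported here. Members, lists and tests were chosen with earlier results of these data known.

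Alternatives were another pseudocount, no filter or one of 3 libraries, quantile normalization, median centring, scaling to a sum of 1000000, limma without a trend or with robust variances, only the compared groups, the replicate number as a block, other fold thresholds, and leaving out each library in turn.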

Additional observations from a re-analysis of the deposited data

Results flagged for a closer look

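In 7 of the 90 groups of 4 libraries that were tested, 1 library stood apart from the other 3 by Dixon's criterion at 95%, and chance alone flags about 1 in 20 groups. Asb2 was at 1078 in basal WT replicate 4 of set 2, against 737 to 774 in the others. The same library stood apart in Asb14, at 156 against 122 to 125. Asb14 was also low in immobilized Sesn2SkM-Tg replicate 2, at 40.5 against 64.3 to 68.4. Asb15 was at 97.8 in basal WT replicate 3 of set 1, against 75.96 to 78.5. Asb8 in basal Sesn1KO replicate 1 was at 97.8 against 92.9 to 93.6, and Asb11 in basal Sesn1KO replicate 2 was at 116 against 123 to 124. Asb16 was at 76.6 in basal Sesn1SkM-Tg replicate 1, against 85.1 to 86.8.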

How the results depend on the processing

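Of 3790 values of the members under the alternatives, 3702 kept their side of the threshold, of which 79 that were not called changed sign, 61 lost their call, 27 gained one and 0 of the called values reversed. A fold threshold of log2 1 left 2 members called in place of 7 in the immobilization of WT muscles of set 1 and 2 in place of 7 in Sesn2SkM-Tg muscles. It left 1 in place of 4 in WT muscles of set 2, 3 in place of 7 in Sesn1KO muscles, 6 in place of 10 after denervation and 0 in place of 1 in immobilized Sesn1KO against WT muscles, since fewer changes reach it. With only the compared groups, that last count was also 0. Leaving out 1 library gave 5 to 8 members called in immobilized Sesn1SkM-Tg muscles, 0 to 1 in Sesn2SkM-Tg against WT muscles in either state, 0 to 4 in immobilized Sesn1KO against WT muscles and 0 to 1 for the difference between the sets. In the Sesn1KO comparison, the fit without Sesn1KO replicate 4 also called Asb5 (0.92), Asb12 (0.71) and Asb14 (-0.61). The share of all genes called under each alternative is not given beside the counts of this section. A change in a count may therefore not be particular to the members. The cause of these changes was not tested. The depth is unknown, so it could not be weighed for low values such as those of Asb12 and Asb18 after denervation.

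Replicate numbers showed no general pairing of the libraries. Deviations of libraries with the same number correlated at a median of -0.00120 (range -0.452 to 0.534), against 0.00845 for other numbers. Of the 91 pairs with the same number, 24 were over 0.1, so a link within some groups is not excluded. With the replicate number as a block, 10 members were called after denervation, and 1 in place of 0 in basal Sesn2SkM-Tg against WT muscles. The block moved no other count of members by over 1.5 times.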
